A study of Mus musculus with 21 samples.

Results

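The expression of 10 genes of skeletal muscle was examined in lungs dissected from Fendrr knockout embryos and their wild-type littermates at E14.5 (embryonic day). The genes were chosen by symbol, 10 of 42341 symbols in the lung table, as markers of the muscle lineage: the regulators Myog and Myod1, the myosin heavy chains Myh3 and Myh8, the myosin light chains Myl1 and Mylpf, the thin filament genes Acta1, Tnni1 and Tnnt3, and the creatine kinase Ckm. Fendrr, which the sample labels name linc-Foxf1a, is a lincRNA transcribed next to Foxf1a. In the knockout its gene was replaced, in every cell of the embryo, by a lacZ reporter cassette with a neomycin resistance gene. The paper states that the Fendrr promoter and first exon were kept. The labels list 2 wild-type and 2 knockout lung libraries. For contrast, the same genes were read in brain: telencephalon of linc-Brn1b wild-type and knockout embryos at E13.5 and E15.5, whole brain of the same strain at postnatal day 7 (P7), and whole brain of wild-type and Peril knockout embryos (linc-Sox2 in the labels) at E18.5, with 2 libraries a group apart from 3 for the linc-Brn1b knockout at E15.5. All strains carry a lacZ cassette in place of the lincRNA, made in hybrid embryonic stem cells and backcrossed once to C57BL/6J.

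Skeletal muscle cells arise from precursors that switch on MyoD family transcription factors, of which Myod1 commits cells to the lineage and Myog drives their fusion and differentiation. Differentiated fibres then build sarcomeres, in which myosin motors on thick filaments pull on thin filaments of actin, and troponin on the thin filament makes the pull depend on calcium. Heart muscle uses the same machinery with partly different isoforms, and the embryonic heart also expresses several genes named for skeletal muscle, among them Acta1, Tnni1 and Ckm. A lung holds smooth muscle in airways and vessels and is not a source of skeletal muscle fibres.

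Expression was given by the authors in FPKM (fragments scaled to the length of the transcript and to the number of mapped fragments) as 1 value per group over its libraries. The spread between embryos could therefore not be seen, no difference below has a replicate check, and no test was made. A change is given as the plain ratio of knockout over wild type and as the difference of log2(FPKM + 1), knockout minus wild type. A gene was counted as higher or lower when that difference reached 1 in size, a 2-fold change on that scale, and when the mean of both groups was at least 1 FPKM. In the lung 13979 genes met the level, and their median difference was 0.0040.

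The lung libraries carried the genotype of their labels: linc-Cox4nb-4, the entry that covers Fendrr, stood at 38.4 FPKM in wild type against 0.0450 FPKM in the knockout. The genes Uty, Kdm5d, Ddx3y and Eif2s3y of the Y chromosome lay between 4.55 and 13.51 FPKM in wild type and were listed at 0 in the knockout, so sex and genotype cannot be told apart in the lung comparison. The same holds for the 4 brain comparisons, in each of which these genes lay at or above 2.07 FPKM in 1 genotype (wild type at E13.5, knockout in the others) and at or under 0.0184 FPKM in the other. In bulk tissue, fewer cells of a type and less RNA per cell cannot be told apart either.

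The contractile genes were more abundant in the knockout lung, while the regulators of the lineage were near the bottom of the scale in both genotypes. Of the 10 genes, 7 reached a mean of 1 FPKM, and 4 of these (Ckm, Myl1, Acta1 and Tnni1) were at least 2-fold higher in the knockout, against 0.572% of all 13979 genes. None of the 7 was at least 2-fold lower, against 0.293% of all genes. The other 3, Tnnt3, Mylpf and Myh3, had plain ratios from 1.64 to 1.90. The lowest of the 7 in wild type, Myh3, stood at 2.06 FPKM, so all 7 were above the level in each genotype. Summed over the 10 genes, the level was 56.2 FPKM in wild type against 132.6 FPKM in the knockout, a ratio of 2.36.

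**Figure D1:**
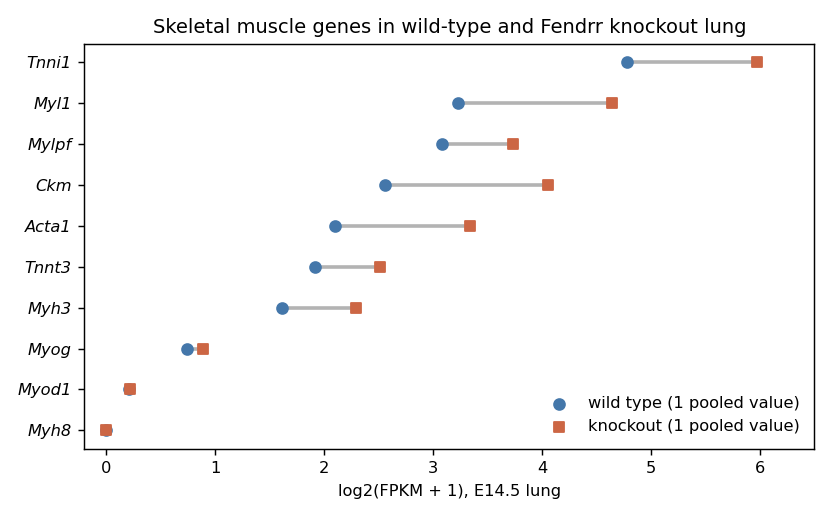
Level of each skeletal muscle gene in E14.5 lung, as log2(FPKM + 1) on the x axis, with 1 pooled value per genotype (circle, wild type, and square, knockout) and no error bars because no values per library were given. The gap is widest for Ckm (1.49), Myl1 (1.41), Acta1 (1.24) and Tnni1 (1.20), and Myod1 and Myh8 show none that can be seen.

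RefSeq promoter sequences are shown for the 4 genes past 2-fold, so that the E-box CANNTG, the motif of MyoD family factors, can be seen in them. Whether these factors had a part in the changes was not tested. Each line gives the 250 bases before the start of transcription, 5′ to 3′ on the gene's strand, with every CANNTG in capitals. The first of the pair of Tnni1 entries is shown, and the second (chr1:135799261-135799510) overlaps it and holds 2 of its CANNTG. The positions are of GRCm38.p6 and differ from the mm9 positions of the expression table.
Ckm promoter (GRCm38.p6, chr7:19410844-19411093, + strand): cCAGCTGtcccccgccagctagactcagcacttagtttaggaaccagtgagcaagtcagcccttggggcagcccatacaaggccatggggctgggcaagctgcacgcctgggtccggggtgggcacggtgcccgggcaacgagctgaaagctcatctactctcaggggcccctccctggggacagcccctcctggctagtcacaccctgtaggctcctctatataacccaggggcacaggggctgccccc
Tnni1 promoter (GRCm38.p6, chr1:135799171-135799420, + strand): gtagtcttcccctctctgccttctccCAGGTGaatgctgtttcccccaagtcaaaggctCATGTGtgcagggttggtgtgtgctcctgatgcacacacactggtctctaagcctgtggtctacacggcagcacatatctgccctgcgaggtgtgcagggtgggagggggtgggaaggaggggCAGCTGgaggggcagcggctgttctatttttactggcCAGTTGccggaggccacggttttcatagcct
Myl1 promoter (GRCm38.p6, chr1:66945057-66945306, - strand): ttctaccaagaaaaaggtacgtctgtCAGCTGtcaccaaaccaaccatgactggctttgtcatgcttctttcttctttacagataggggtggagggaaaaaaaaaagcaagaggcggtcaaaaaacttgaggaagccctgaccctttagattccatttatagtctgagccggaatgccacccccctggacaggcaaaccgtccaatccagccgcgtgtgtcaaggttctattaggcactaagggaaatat
Acta1 promoter (GRCm38.p6, chr8:123894776-123895025, - strand): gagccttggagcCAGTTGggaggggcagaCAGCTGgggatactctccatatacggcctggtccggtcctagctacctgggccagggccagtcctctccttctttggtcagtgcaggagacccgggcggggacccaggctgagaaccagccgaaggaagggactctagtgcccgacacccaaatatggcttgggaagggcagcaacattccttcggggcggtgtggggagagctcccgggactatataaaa
Promoters were found for 8 of the 10 genes, not for Myod1 and Tnnt3. In the stretch from 250 bases before to 50 after the start, CANNTG, which reads the same on both strands in its fixed letters, occurred in 8 of 8, against 72.3% of 32851 RefSeq promoters. The form CAGCTG, which is contained in CANNTG and preferred by MyoD family factors, occurred in 5 of 8, against 16.3% of all promoters. The 5 were the 4 genes shown and Mylpf, whereas the windows of Myog, Myh3 and Myh8 held other forms of CANNTG. These matches describe letters and were not tied to binding.

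The regulators gave little signal. Myod1 (mm9 chr7:53631844-53634462, + strand) stood at 0.160 FPKM in wild type against 0.161 FPKM in the knockout. Myog (chr1:136186581-136189125, + strand) stood at 0.673 FPKM and 0.853 FPKM, a plain ratio of 1.27. Both genes were under the level of 1 FPKM, and the number of reads behind the values is unknown, so neither entered the count. A wider list of 12 regulators of the lineage had 4 genes above the level, of which 1 was at least 2-fold higher and 0 lower. The gene past 2-fold was Smyd1, a methyltransferase of sarcomere assembly that is also expressed in heart, at 2.47 FPKM in wild type against 6.01 FPKM in the knockout. Mef2c and Six4, transcription factors used in many tissues, had plain ratios of 1.09 and 1.04. The remaining 8, which include Myf5, Myf6, Pax3, Pax7 and Lbx1, lay at or under 0.230 FPKM in both genotypes.

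Of the myosin heavy chains, Myh3 was detected and Myh8 could not be assessed. Myh3 (chr11:66891802-66915793, + strand), the embryonic isoform of developing fibres, stood at 2.06 FPKM in wild type against 3.91 FPKM in the knockout, a plain ratio of 1.90 and a difference of 0.68 on the log2 scale. The knockout was higher, short of 2-fold. Myh8, the perinatal isoform, was listed at 0 in both genotypes. Its entry lies at chr11:66984529-67011019, which is the annotated position of its neighbour Myh2, and not at the annotated position of Myh8, chr11:67090626-67122136. The entry at that place is named mKIAA4211 and was listed at 0 in all 10 groups, so the value under the name Myh8 does not measure that gene by position. Reads of the closely related myosin genes of this cluster can also be divided among them by the counting.

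The pair of light chains differed in the size of the change. Myl1 (chr1:66970870-66991630, - strand), an alkali light chain of fast fibres, stood at 8.40 FPKM in wild type against 24.0 FPKM in the knockout, a plain ratio of 2.86. Mylpf (chr7:134355122-134357801, + strand), the regulatory light chain of fast fibres, stood at 7.47 FPKM and 12.3 FPKM, a plain ratio of 1.64 that did not reach 2-fold. FPKM is per length, so levels can be set against each other within a group, and Mylpf stood at 0.890 of Myl1 in wild type and 0.512 in the knockout. The differences of the pair were 1.41 for Myl1 and 0.65 for Mylpf on the log2 scale.

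Among the thin filament genes, Tnni1 was the most abundant of the 10. Tnni1 (chr1:137695998-137707566, + strand), the troponin I of slow fibres, stood at 26.5 FPKM in wild type against 62.0 FPKM in the knockout, a plain ratio of 2.34 and a difference of 1.20. Acta1 (chr8:126415664-126473165, - strand), skeletal alpha-actin, stood at 3.29 FPKM and 9.14 FPKM, a plain ratio of 2.78 and a difference of 1.24. Tnnt3 (chr7:149646775-149701916, + strand), the troponin T of fast fibres, stood at 2.77 FPKM and 4.71 FPKM, a plain ratio of 1.70 and a difference of 0.60. Both Tnni1 and Acta1 were thus past 2-fold, and Tnnt3 was not.

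The entries of these genes share their ground with others. That of Acta1 spans 57502 bp where the annotated gene spans 2983 bp, and the same interval is given to the nuclear pore gene Nup133, at 16.3 FPKM in wild type against 16.8 FPKM in the knockout. That of Tnnt3 spans 55142 bp where the annotated gene spans 17174 bp, and it is shared with Lsp1, a gene of white blood cells, at 71.6 FPKM and 83.9 FPKM. Antisense lincRNA entries lie at the same place as Acta1, Tnnt3 and Tnni1, and whether the counting used strand is not given in the sources used here. The plain ratios of Nup133 and Lsp1 were 1.03 and 1.17, below those of Acta1 and Tnnt3.

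Isoform ratios show how evenly related genes moved. Tnni2, the troponin I of fast fibres, stood at 0.0439 of Tnni1 in wild type and 0.0431 in the knockout. Acta1 stood at 0.0426 of Actc1, the cardiac alpha-actin, in wild type and 0.0424 in the knockout. Tnni3, the troponin I of heart, stood at 0.705 of Tnni1 in wild type and 0.769 in the knockout. Tnnt1, the troponin T of slow fibres, stood at 2.72 times Tnnt3 in wild type and 2.47 times in the knockout. These 4 ratios moved less than that of the light chain pair.

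Ckm had the widest difference of the 10. Ckm (chr7:19996443-20006932, + strand), the creatine kinase that buffers ATP in muscle, stood at 4.91 FPKM in wild type against 15.6 FPKM in the knockout, a plain ratio of 3.19 and a difference of 1.49. Ckb, the creatine kinase of brain and other tissues, stood at 35.7 FPKM and 33.5 FPKM, a plain ratio of 0.938. Ckm was therefore at 0.138 of Ckb in wild type and at 0.467 in the knockout.

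**Figure D2:**
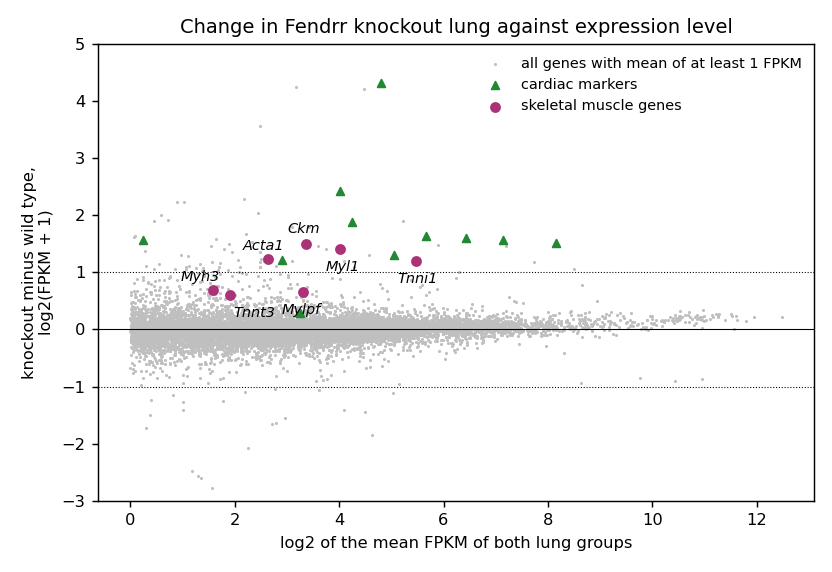
Difference of log2(FPKM + 1), knockout minus wild type, against the log2 of the mean FPKM of both E14.5 lung groups, for all genes with a mean of at least 1 FPKM (grey points, 23 of which lie outside the axis), the skeletal muscle genes (circles) and the cardiac markers (triangles). The skeletal muscle genes lie between 0.60 and 1.49 and the cardiac markers between 0.29 and 4.32, with dotted lines at a 2-fold change.

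Set among all 13979 genes, the differences of the 7 genes stood from the 98.6th percentile (Tnnt3) to the 99.8th percentile (Ckm). The median of the 7 differences was 1.20, and 0.67 over all 10 genes, with Myog, Myod1 and Myh8 included.

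Other muscle gene lists were read beside the 10 genes. Of 12 fast fibre genes 3 reached the level, and 2 of them were at least 2-fold higher: Tnnc2, the troponin C of fast fibres, at 1.20 FPKM in wild type against 3.83 FPKM in the knockout, and Casq1, a calcium store protein, at 2.38 FPKM and 6.20 FPKM. The third, Tnni2, stood at 1.16 FPKM and 2.67 FPKM. The remaining 9, which include the fast myosin heavy chains Myh1, Myh2 and Myh4, were under the level, and the median difference was 1.09 over the 3 and 0.21 over all 12.

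Genes of slow fibres that the heart shares had the highest median difference of the 8 muscle lists, the 10 genes included, at 1.32. All 8 slow fibre genes reached the level and 6 were at least 2-fold higher. Of the 6, Myl2 and Myl3 stood under 1 FPKM in wild type (0.884 and 0.827 FPKM) and reached the level only through the knockout. Myl2, a ventricular and slow fibre light chain, stood at 0.884 FPKM in wild type against 8.16 FPKM in the knockout, and Myoz2, a Z-disc protein, at 1.07 FPKM and 5.19 FPKM. Tnnt1 (7.54 FPKM and 11.6 FPKM) and Atp2a2, the calcium pump of heart and slow fibres (54.8 FPKM and 71.8 FPKM), did not reach 2-fold.

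Of 15 sarcomere and Z-disc genes 9 reached the level and 5 were at least 2-fold higher, with a median difference of 1.10. Csrp3, a Z-disc protein, stood at 15.1 FPKM in wild type against 59.5 FPKM in the knockout, and Actc1 at 77.2 FPKM and 215.4 FPKM. Myom1 of the M-band and the intermediate filament gene Des had plain ratios of 1.74 and 1.30. Of 9 genes of muscle energy metabolism 6 reached the level and 3 were at least 2-fold higher, among them Cox6a2, a cytochrome oxidase subunit of heart and skeletal muscle, at 3.27 FPKM and 13.9 FPKM, and the glycolytic enzyme Pgam2 at 6.89 FPKM and 19.9 FPKM. Eno3 and Pygm, of glycolysis and glycogen breakdown, had plain ratios of 1.61 and 1.77.

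Most genes of the fibre membrane and its nerve contact were under the level. So were most lung symbols, of which 13979 of 42341 reached it. Of 10 excitation-contraction coupling genes 3 reached the level and 0 were 2-fold higher: Trdn, a protein of the calcium release complex, had a plain ratio of 2.34 but a difference of 0.86, and the junctophilins Jph1 and Jph2 had plain ratios of 0.978 and 1.32. Of 8 neuromuscular junction genes 1 reached the level, the acetylcholine receptor subunit Chrnb1, at 6.28 FPKM in wild type against 5.85 FPKM in the knockout. The receptor subunits Chrng and Chrna1 lay at or under 0.158 FPKM in both genotypes. No gene of any of these lists was at least 2-fold lower.

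Markers of heart moved with the skeletal muscle genes. Of 12 cardiac markers 11 reached the level, 10 were at least 2-fold higher and 0 lower, with a median plain ratio of 3.10 and a sum of 330 FPKM in wild type against 1027 FPKM in the knockout. Of the 10, Nppb stood at 0.103 FPKM in wild type and reached the level only through the knockout, at 2.25 FPKM. Nppa, the atrial natriuretic peptide, stood at 1.77 FPKM and 54.2 FPKM, and Ankrd1, a stretch-responsive cardiac gene, at 4.37 FPKM and 27.99 FPKM. Mybpc3 of the cardiac thick filament stood at 4.12 FPKM and 10.9 FPKM, and Gja5, a connexin of atria and arteries, at 8.50 FPKM and 10.6 FPKM, short of 2-fold. The 7 skeletal muscle genes had a median plain ratio of 2.34. The part of heart tissue in the levels and changes of the skeletal muscle genes was not tested. Among genes of the skeletal lineage, the MyoD family regulators and the fast myosin heavy chains were under 1 FPKM in both genotypes. So were Chrng, Chrna1, Ryr1 (excitation-contraction list), Atp2a1 (fast fibre list) and Neb (sarcomere list), the last with a plain ratio of 0.678. By contrast, Mylpf, Tnnt3, Myh3, Tnnc2, Casq1 and Chrnb1 were above it in both. These 6 are a selection, since 9 of 12 fast fibre, 7 of 10 excitation-contraction and 7 of 8 junction genes had means under the level. Casq1 reached 3.20 FPKM in brain, above its 2.38 FPKM in wild-type lung, and Chrnb1 was not higher in the knockout (plain ratio 0.932). The cells that these transcripts came from were not tested.

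Markers of other tissues that a dissection could hold were read in the same way, and none of those at the level was past 2-fold. The 7 smooth muscle markers all reached the level and 0 were past 2-fold in either direction, with a median plain ratio of 0.920 and the lowest for Myh11, a smooth muscle myosin, at 28.4 FPKM in wild type against 17.4 FPKM in the knockout. The 8 lung epithelium markers had a median plain ratio of 0.925 and the 7 lung mesenchyme markers one of 1.06, with 0 past 2-fold in each, and Foxf1a was the lowest of the mesenchyme at 36.6 FPKM and 24.8 FPKM. The 5 oesophageal epithelium markers had a median plain ratio of 1.26 and a ratio of sums of 1.53, with 0 past 2-fold. Among them the keratins Krt5 (4.04 FPKM and 7.54 FPKM) and Krt15 (7.60 FPKM and 13.4 FPKM) had differences of 0.76 and 0.74, above those of Myh3, Mylpf and Tnnt3, and Krt4 and Krt13 had plain ratios of 0.879 and 0.654. Of the thymus, cartilage and forebrain markers 3, 3 and 1 reached the level and 0 were past 2-fold, and all 4 thyroid markers were under the level. The part of these tissues was not tested.

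**Figure D3:**
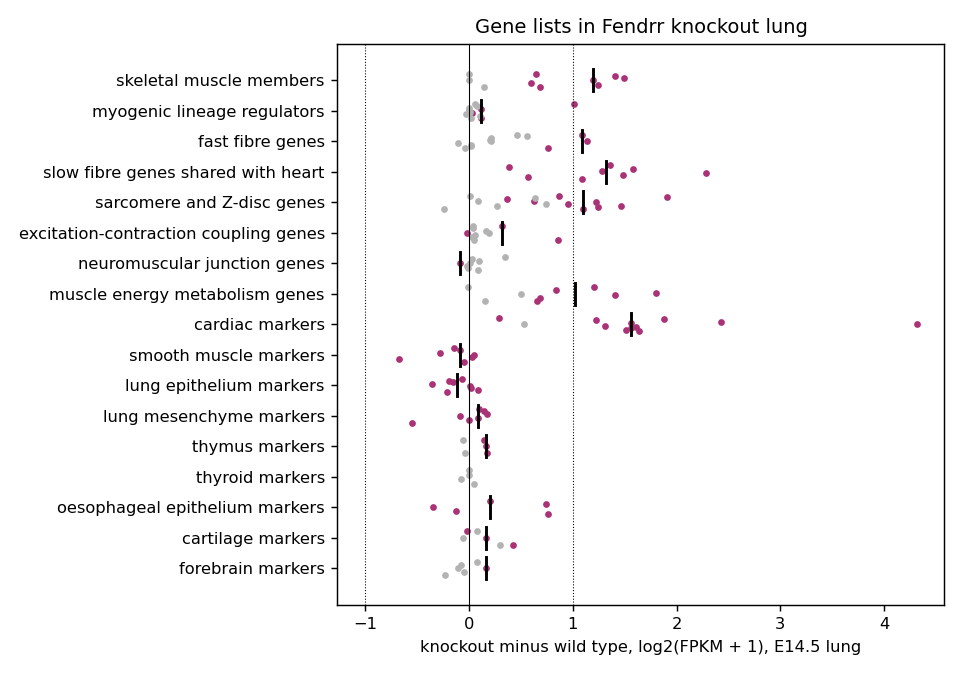
Difference of log2(FPKM + 1), knockout minus wild type, in E14.5 lung for each gene of 17 lists, with genes at a mean of at least 1 FPKM in colour, other genes in grey and the median of the coloured genes as a black bar. The medians of the cardiac markers (1.56), slow fibre genes (1.32) and 10 skeletal muscle genes (1.20) lie past the dotted line of 2-fold. So do those of the sarcomere (1.10), fast fibre (1.09) and energy metabolism (1.02) genes. Those of smooth muscle (-0.09) and lung epithelium (-0.11) lie near 0.

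Counted together, the 10 genes and the 7 other muscle lists held 21 of the 80 genes that were at least 2-fold higher in the knockout lung. The 21 were 51.2% of the 41 muscle genes at the level, against 0.572% of all 13979 genes, and 26.2% of the 80. With the cardiac markers added, the count was 31 of 80, which is 59.6% of 52 genes and 38.8% of the 80. Myl2 and Myl3 among the 21, and Nppb among the cardiac markers, met the level only through the knockout. The genes and lists were chosen with earlier results of these data known, so these shares are not independent of the changes.

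In the brain the 10 genes were low. Of 80 values in 8 brain groups, 73 were under 1 FPKM and 10 were listed at 0, with a median of 0.0616 FPKM and a highest value of 3.04 FPKM. Most symbols were low as well. A mean of 1 FPKM was met by 13510 (E13.5), 13522 (E15.5) and 14177 (P7) of 40338 symbols. In the Peril brain 14414 of 42341 symbols met it. The tables of the 3 strains were normalised separately, so levels across them are set side by side and were not compared by a test. Summed over the 10 genes, the level ran from 1.75 FPKM in the E15.5 knockout telencephalon to 5.58 FPKM in the P7 wild-type brain. For 9 of the 10 genes the wild-type lung value was above all 8 brain values. The share of all genes in that order was not counted, so whether the order is unusual is unknown. The exception was Myh8, whose entry does not measure that gene by position.

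Ckm, Tnni1 and Myl1 stood furthest apart between the tissues. The wild-type lung was 52.2 times the highest brain value for Ckm (0.0941 FPKM), 34.8 times for Tnni1 (0.760 FPKM) and 24.8 times for Myl1 (0.338 FPKM). Myog reached 0.0556 FPKM in the brain groups and Myod1 0.0626 FPKM. Myh3 ran from 0.0477 to 0.775 FPKM, and Tnnt3 from 0.0502 to 0.980 FPKM. Tnnt3 was lower in the knockout of all 4 brain comparisons, at 0.806 FPKM in wild type against 0.254 FPKM at P7, and stayed under the level in each.

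Acta1 and Mylpf were the members with brain values above 1 FPKM, and their values were ordered differently over the groups. Age cannot be told apart from the dissected region, since the E13.5 and E15.5 groups are telencephalon and the P7 and E18.5 groups whole brain. Acta1 stood at 0.411 FPKM in wild type against 0.353 FPKM in the knockout at E13.5, and at 0.598 FPKM and 0.662 FPKM at E15.5. It stood at 2.74 FPKM and 3.04 FPKM at P7, and at 2.06 FPKM and 2.36 FPKM in the Peril groups at E18.5. The wild-type lung was 1.08 times the highest of these, so Acta1 by itself hardly sets the lung apart. Mylpf stood at 1.97 FPKM and 1.52 FPKM at E13.5, at 1.30 FPKM and 0.874 FPKM at E15.5, at 0.524 FPKM and 0.415 FPKM at P7, and at 0.753 FPKM and 0.678 FPKM in the Peril groups. Acta1 was thus highest in the whole brains and Mylpf in the E13.5 telencephalon.

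None of the 10 genes was past 2-fold in a brain comparison, where 1 gene reached the level each time. At E13.5 this was Mylpf, with a difference of -0.24, against 0.415% of all genes at least 2-fold higher and 1.63% lower. At E15.5 it was again Mylpf, with -0.29, against 0.141% higher and 0.207% lower. At P7 it was Acta1, with 0.11, against 0.473% higher and 0.501% lower. In the Peril brain it was Acta1, with 0.13, against 0.347% higher and 0.229% lower.

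**Figure D4:**
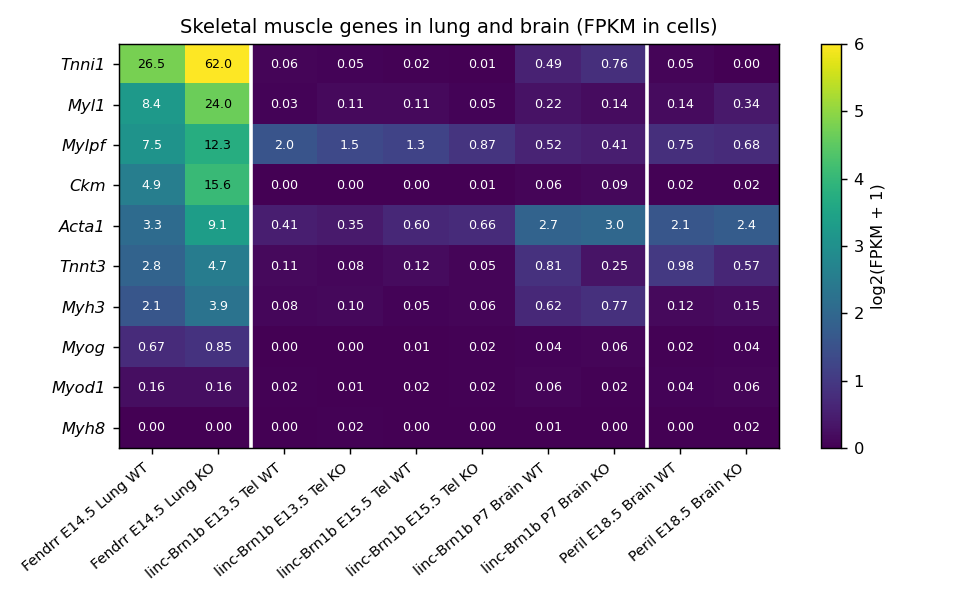
Levels of the 10 genes in the 10 groups, with log2(FPKM + 1) as colour and FPKM printed in the cells, and white lines between the 3 tables, which were normalised separately (WT, wild type, KO, knockout, Tel, telencephalon). The lung columns hold the high values, from 26.5 to 62.0 FPKM for Tnni1, and brain values above 1 FPKM occur for Acta1 and Mylpf.

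Within the wild-type lung the levels fell in the order Tnni1, Myl1, Mylpf, Ckm, Acta1, Tnnt3, Myh3, Myog, Myod1 and Myh8. Neighbours such as Myl1 and Mylpf (8.40 and 7.47 FPKM) or Acta1 and Tnnt3 (3.29 and 2.77 FPKM) are close, and whether they differ beyond the spread of libraries could not be judged.

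The genes whose pattern over the 10 groups was most like the mean of the 10 muscle genes were found by Pearson correlation of log2(FPKM + 1). The 10 nearest of 16276 genes were Fam110c, Tcrd, Tnnt2, Tnnc1, Ces2g, Pkhd1l1, Angptl1, Col6a6, Cxcl13 and Myom1, with r from 0.995 to 0.999. Of these, 3 are in the lists above: Tnnt2 (41.9 FPKM in wild-type lung against 129.9 FPKM in the knockout), Tnnc1 (30.9 and 88.0 FPKM) and Myom1. The 10 points share 2 lung groups against 8 brain groups, and a gene that is high in lung and higher in the knockout lung scores near 1 by that alone. Of the 10 genes themselves, the coefficient was -0.31 for Myh8, 0.82 for Acta1 and between 0.91 and 0.995 for the other 8. Each of the 10 is part of the mean it was set against, which raises its coefficient.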

How the data were processed

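Expression was measured by RNA-seq in 21 libraries of lung and brain. According to the methods and the submitters' processing notes, mRNA-seq libraries were made from total RNA, and paired-end reads were aligned to mm9 with TopHat2. By the same sources, Cufflinks (version 2.0.2) and Cuffdiff2 with default options gave the values. The authors deposited FPKM values, 1 per group over its libraries, in 3 tables. The tables hold no values per library, so read depth is unknown and no error, interval or test was computed. Columns of the authors' own comparisons (fold changes, test statistics, p-values, q-values and calls) were not used.

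Entries of one symbol were summed. Differences of log2(FPKM + 1) were taken within a table in Python (version 3.11.15) with pandas (version 2.3.3). The 2-fold rule was applied to genes with a mean of at least 1 FPKM over both groups. It was tried only on simulated 4-fold changes with little noise, so its error rate in these data is unknown. Starts in the tables count from 0, and 1 was added. Annotated positions are of GENCODE on NCBIM37 (mm9), and promoters of RefSeq on GRCm38.p6. Protein sequences were not used here.

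Named genes were the 10 genes, the 2 highest and 2 lowest differences at the level in each of the other lists, the genes of fixed isoform ratios, the 10 nearest by correlation and the targeted lincRNA. Not all genes that this rule names are reported here. Nup133, Lsp1, mKIAA4211, the Y-linked genes, Myf5, Myf6, Pax3, Pax7, Lbx1, Myh1, Myh2, Myh4, Myl3, Nppb, Neb, Ryr1 and Atp2a1 were named after their values were seen. The members and lists were chosen with earlier results of these data known. Alternatives were other pseudocounts, fold and level limits, centring and scaling.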

Additional observations from a re-analysis of the deposited data

How the results depend on the processing

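No paired analysis was possible because the tables give 1 value per group, and leaving out each replicate could not be run for the same reason. With no spread between replicates, a value was taken as moved when it changed by over 1.5 times. Changes of very small absolute size, such as those of Myod1 near 0, were counted as not moved whatever their ratio. Of 126 alternative values 114 did not move by that measure, 12 did and 0 changed sign as a called result. The count of the 10 genes past 2-fold stayed at 4 with a pseudocount of 0.1 FPKM, without the level filter, at a level of 5 FPKM and after centring on the median of all genes, and was 7 at 1.5-fold and 0 at 4-fold. The 80 genes higher over the whole lung table became 139 at a pseudocount of 0.1 FPKM, 196 at 1.5-fold, 13 at 4-fold and 43 at a level of 5 FPKM, and the 41 lower became 70, 113, 24 and 28. Without the level filter, which adds genes near 0, the median difference was 0.044 for the myogenic regulators, 0.21 for the fast fibre genes, 0.052 for the excitation-contraction genes, 0.019 for the neuromuscular junction genes and -0.063 for the forebrain markers, against 0.12, 1.09, 0.32, -0.09 and 0.16. The median of the oesophageal markers was 0.31 with a pseudocount of 0.1 FPKM, against 0.21. Of the 10 genes nearest by correlation 4 were kept with a pseudocount of 0.1 FPKM, and the cause was not tested. The difference of Myog was 0.30 with a pseudocount of 0.1 FPKM and 0.34 with none, against 0.15. Reading Myh8 at its annotated position, chosen after seeing the data, gave 0 in all groups.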
